A study of Mus musculus with 18 samples.

Results

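Founder line 79 (Tg79) of mice that carry a miR-17~92 transgene was compared with wild-type mice (WT) in B cells of the spleen. The members are the arrays titled Tg79-1, Tg79-2 and Tg79-3, which are 3 of the 9 miRNA arrays and 3 of the 9 mRNA arrays, or 6 of 18 arrays in all. Tg79 mice express miR-17~92 from a transgene driven by the Eμ enhancer and the immunoglobulin heavy-chain (IgH) promoter, elements that are active in B cells. WT mice have no transgene and gave 3 arrays of each kind. A further line with the same transgene, founder line 9 (Tg9), gave 3 arrays of each kind and was used here for the estimate of spread and as a value beside some results. In all groups B cells were isolated with magnetic beads and RNA was taken with Trizol, and Cy5-labelled RNA was hybridised to arrays of 1 colour. A founder line goes back to its own insertion of the transgene, so effects of the miRNAs and of the insertion site cannot be told apart within 1 line. Strain, age and sex are not given in the sources used here. The labels do not say that each array is a separate mouse, so p-values measure the spread between these samples, which may be technical. In such bulk RNA fewer cells of a type and less RNA per cell cannot be told apart.

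The miR-17~92 cluster is transcribed as a single primary RNA that is cut into 6 hairpins, and each hairpin can give an arm from its 5′ side and an arm from its 3′ side. A miRNA pairs with target mRNAs mainly through its seed, bases 2 to 8, and lowers their stability and translation. The cluster holds 4 seed families, named after miR-17, miR-18, miR-19 and miR-92, and is known for promoting survival and proliferation of B cells, in which the pro-apoptotic gene Bim is a reported target. The paralogous clusters miR-106a-363 and miR-106b~25 hold members of the same seed families.

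In the mouse genome (build GRCm38.p6, RefSeq) the 6 hairpins of miR-17~92 lie on the forward strand at chr14:115043671-115044506, those of miR-106a-363 on the reverse strand at chrX:52741693-52742567, and the 3 of miR-106b~25 on the reverse strand at chr5:138165321-138165818. Mature sequences of the families are shown 5′ to 3′ because the values of these miRNAs are set beside their sequences below, with the seed in capitals. The miR-17 family has these 6 tested members:
miR-17-5p: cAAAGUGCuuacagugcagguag
miR-20a-5p: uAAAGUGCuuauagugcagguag
miR-20b-5p: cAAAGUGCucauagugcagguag
miR-106a-5p: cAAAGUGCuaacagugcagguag
miR-93-5p: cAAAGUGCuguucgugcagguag
miR-106b-5p: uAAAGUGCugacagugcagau
The miR-18 family has 2 tested members:
miR-18a-5p: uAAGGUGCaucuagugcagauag
miR-18b-5p: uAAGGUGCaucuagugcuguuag
The miR-19 family has 2 as well:
miR-19a-3p: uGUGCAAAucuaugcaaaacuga
miR-19b-3p: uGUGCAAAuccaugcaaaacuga
The miR-92 family has 5:
miR-92a-3p: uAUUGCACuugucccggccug
miR-92b-3p: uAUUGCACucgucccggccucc
miR-25-3p: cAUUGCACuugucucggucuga
miR-363-3p: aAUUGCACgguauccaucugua
miR-32-5p: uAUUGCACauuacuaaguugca
MiR-17-5p, miR-20a-5p, miR-18a-5p and miR-19a-3p come from miR-17~92 alone. Mature miR-19b-3p and miR-92a-3p are each encoded in both miR-17~92 and miR-106a-363, so their probes do not tell these loci apart. MiR-20b-5p, miR-106a-5p, miR-18b-5p and miR-363-3p belong to miR-106a-363, and miR-93-5p, miR-106b-5p and miR-25-3p to miR-106b~25. MiR-92b-3p lies on chromosome 3 and miR-32-5p on chromosome 4.

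On the miRNA arrays 501 of 1265 probes were tested. They exceeded a limit, set at the 95th percentile of each array's negative controls, on at least 3 of 9 arrays. Values are log2 intensities after quantile normalization, and a miRNA is called when limma gave an adjusted p under 0.05 (Benjamini-Hochberg over all 501, model of all 9 arrays). Of the 1265 probes, 24.4%, 32.3% and 29.1% passed that limit on Tg79-1 to Tg79-3 and 40.8%, 36.2% and 35.1% on WT1 to WT3, so the share was lower on every Tg79 array. Of the tested miRNAs 283 were above the limit on all 6 arrays, 184 on fewer Tg79 than WT arrays and 19 on more Tg79 than WT arrays; the part of this difference in the results was not tested. Tg79 arrays also differed more among themselves. The root mean square difference over the tested miRNAs was 0.42 to 0.61 log2 between Tg79 arrays, 0.29 to 0.44 between WT arrays and 0.67 to 0.83 between an array of Tg79 and an array of WT. A number in the names of the scans was read here as the slide, since the sample labels give none. By it the 3 Tg79 arrays lie on a slide with WT2, the 3 Tg9 arrays lie with WT1, and WT3 lies on another slide. A difference between Tg79 and Tg9 on the miRNA arrays therefore cannot be told apart from slide. No slide was used for the mRNA arrays. B cell identity was not checked on the mRNA arrays, whose probes carry no gene names in the files, but miR-150-5p and miR-142-3p, abundant in lymphocytes and leukocytes, were above the limit on all 6 miRNA arrays.

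In Tg79 B cells the probe signals of the transgene's mature miRNAs were higher than in WT B cells. So were the probe signals of relatives with nearly the same sequence that the transgene does not encode. How far the probes of these relatives bind the transgene's miRNAs was not tested. Limma called 23 of 501 miRNAs (4.59%), 18 higher (3.59%) and 5 lower (0.998%) in Tg79. Their limma adjusted p ran from 0.0387 to 0.0499, all close to the cut of 0.05. Of the 18 called higher, 9 are arms of miR-17~92, among them miR-92a-1-5p, which passed the filter only through transgenic arrays, and 5 are the relatives miR-20b-5p, miR-106a-5p, miR-18b-5p, miR-92b-3p and miR-93-5p. The other 4 are miR-181b-5p and miR-181d-5p, miRNAs known from lymphocyte development, miR-21a-3p and miR-1943-3p. MiR-21a-3p, miR-18a-3p and miR-181d-5p also reached the 3 arrays of the filter only with transgenic arrays. MiR-18a-3p and miR-181d-5p were above the limit on 1 WT array each. The number of calls hung on single arrays. It was 0 without Tg79-2, WT1, WT3 or the array labelled Tg9-3 (79 to 118 at an unadjusted p under 0.05), 9 without WT2, 11 without Tg79-1 and 29 without Tg79-3. It was also 0 with slide as a factor, where 46 had an unadjusted p under 0.05 and the smallest adjusted p was 0.53. The 23 kept their direction in that fit and with each array left out. Tg79 and WT do not overlap on any of the 23, so these fits could hardly turn a sign.

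**Figure D1:**
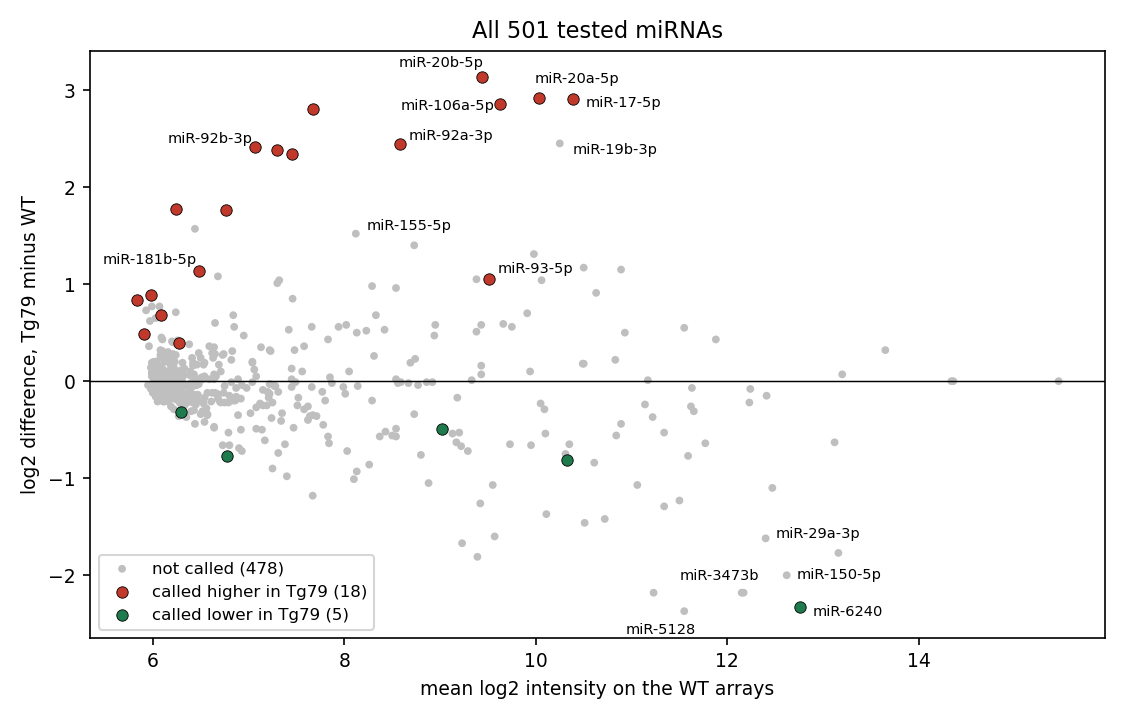
Log2 difference between Tg79 and WT (vertical axis) against the mean log2 intensity on the WT arrays (horizontal axis) for the 501 tested miRNAs. Points in red are the 18 called higher, points in green the 5 called lower, and grey points were not called; the red points at a difference above 2 are arms of miR-17~92 and their relatives.

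MiR-17-5p, the lead member of its seed family, was among the brightest probes of the Tg79 arrays. Before any correction its spot read 5834, 12150 and 11849 intensity units on Tg79-1 to Tg79-3, against 1574, 1842 and 1788 on WT1 to WT3. By brightness it stood at ranks 7, 5 and 6 of 1265 probes on the Tg79 arrays and at ranks 49, 42 and 47 on the WT arrays. Ranks within an array do not depend on the scaling between arrays. After normalization it read 13.12, 13.54 and 13.25 in Tg79 against 10.26, 10.57 and 10.34 in WT, with no overlap. The log2 difference was 2.91 ± 0.63 (SE, limma adjusted p = 0.0477, n = 3 each).

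MiR-20a-5p, of the same seed, read 12.48, 13.25 and 13.12 in Tg79 and 9.91, 10.26 and 9.91 in WT. Its spot ranked 11, 6 and 7 on Tg79 arrays and 57, 49 and 57 on WT arrays. The groups lay apart by over 2 log2 units (mean difference 2.92). MiR-19b-3p, which shares its seed with miR-19a-3p, had ranks of 16, 7 and 8 in Tg79 and 53, 43 and 51 in WT. Its values were 12.06, 13.12 and 12.91 in Tg79 and 10.08, 10.52 and 10.15 in WT, a difference of 2.45 ± 0.59 that was not called (limma adjusted p = 0.0624). The groups did not overlap for miR-19b-3p either.

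The remaining arms of the transgene covered a wide range of brightness. MiR-19a-3p read 9.64, 11.32 and 10.44 in Tg79 and 7.47, 8.10 and 7.43 in WT, and was the arm on which the Tg79 arrays spread most, over 1.68 log2 units. MiR-92a-3p read 10.44, 11.48 and 11.16 in Tg79 against 8.52, 8.68 and 8.54 in WT. MiR-18a-5p read 9.57, 10.44 and 9.36 in Tg79 against 7.25, 7.90 and 7.18 in WT. On all 3 the lowest Tg79 array stood more than 1 log2 unit above the highest WT array, and limma called each (adjusted p = 0.0387). The arms from the other side of the hairpins were dimmer. Of the 5 tested 4 were called higher, against 3.59% of all tested. Among these, miR-18a-3p and miR-92a-1-5p passed the filter only with transgenic arrays. MiR-17-3p read 9.17, 10.08 and 9.77 in Tg79 and 7.12, 7.56 and 7.21 in WT (called), and miR-20a-3p read 7.18, 8.71 and 8.13 in Tg79 and 6.14, 6.36 and 6.23 in WT (called). MiR-18a-3p read 6.73, 7.21 and 6.68 in Tg79, and 6.05, 5.91 and 6 in WT, where it was above the limit on 1 array (called). Since it was tested only because of the transgenic arrays, where it is high, its call is no support for the cluster's rise. MiR-92a-1-5p passed the limit on 2 Tg79 arrays, on 1 Tg9 array and on no WT array, so it was tested only because of the transgenic arrays, where it is high, and its call is no support for the cluster's rise. It was at least 1.54-fold higher in Tg79, with measured means of 6.67 in Tg79 and 5.83 in WT (limma adjusted p = 0.0387). The arm miR-19b-1-5p differed by 0.73 and was not called; it passed the limit on 2 Tg79 arrays and 1 WT array. MiR-19a-5p was below the limit on all 9 arrays and was not tested.

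Over the 11 tested arms, with miR-92a-1-5p, miR-18a-3p and miR-19b-1-5p included, the median log2 difference was 2.38, against -0.04 over all 501 tested miRNAs. Against WT2, the WT array of the same slide, that median was 2.11. It lay between 2.05 and 2.65 in all other alternatives except the fit that subtracts the deposited background column, where it was -0.01 and 0 miRNAs were called; on these arrays that column follows the spot itself (r 0.982 to 0.995 on the log2 scale, across spots). The Tg79 arrays kept nearly the same order from arm to arm. Tg79-2 was highest on 9 of 11 arms and Tg79-1 lowest on 9 of 11, with median distances from the WT mean of 2.87 on Tg79-2, 2.47 on Tg79-3 and 1.86 on Tg79-1. Among WT arrays WT2 was highest on 10 of 11 arms, by a median of 0.18 above the WT mean. The mean level over the arms was 9.35, 10.25 and 9.88 on the Tg79 arrays, 9.31, 7.99 and 8.02 on the arrays labelled Tg9-1 to Tg9-3, and 7.68, 7.98 and 7.70 on the WT arrays. Tg9-1 stands well above the other Tg9 arrays on these miRNAs. The model, which shares 1 estimate of spread over all groups, gave miR-17-5p a larger SE than a fit without the Tg9 arrays. For Tg79 against Tg9 the lowest limma adjusted p among the named miRNAs was 0.156. In a fit of the Tg79 and WT arrays alone the SE of miR-17-5p was 0.15 and its adjusted p 0.00112, and miR-19b-3p was called (2.45 ± 0.30, limma adjusted p = 0.0167). That fit called 24 miRNAs, 17 higher and 7 lower, of which 17 are among the 23 above.

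**Figure D2:**
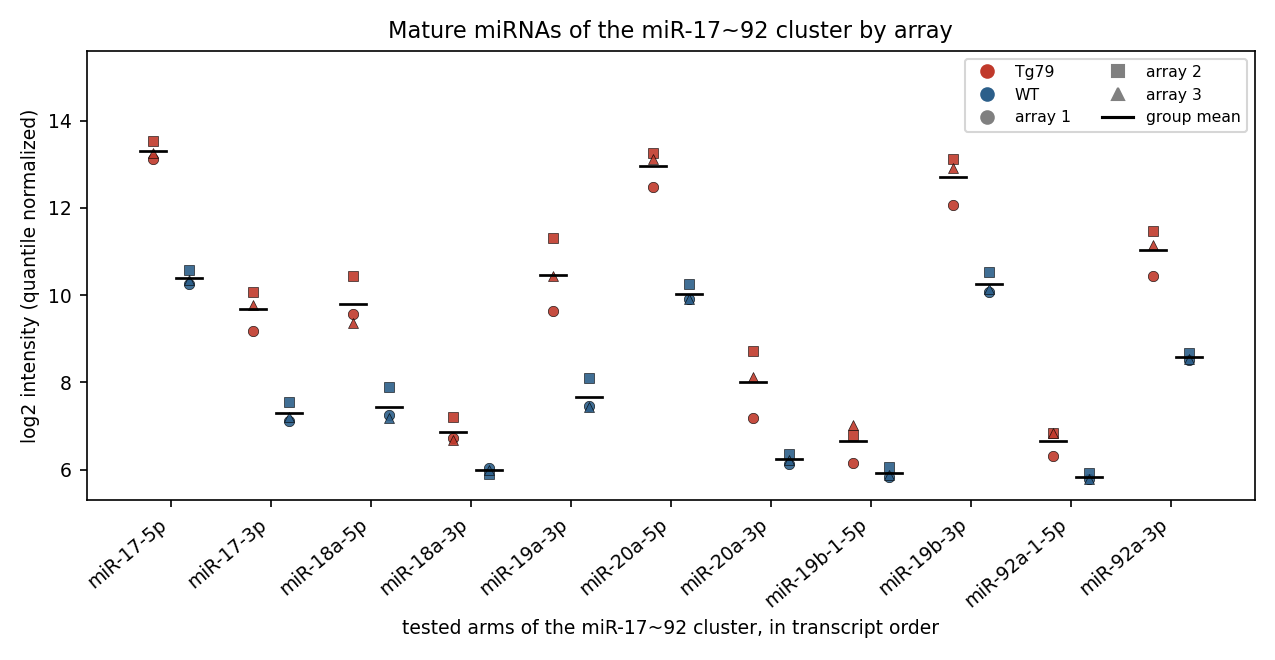
Normalized log2 intensity (vertical axis) of the 11 tested arms of miR-17~92 in transcript order (horizontal axis) on the 3 Tg79 arrays (red, left) and the 3 WT arrays (blue, right), with black bars at group means. The groups do not overlap on any of the 11 arms, and the Tg79 arrays lie 0.73 to 2.92 above WT in the mean.

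Outside the cluster, the 4 called miRNAs with the largest rise all lie within 3 bases of an arm of the cluster. Likeness was measured as the edit distance, the smallest number of bases changed, added or lost between a mature sequence and the nearest arm of miR-17~92. It could be computed for 388 of the tested miRNAs that are not arms, since 399 of 501 tested names matched a RefSeq sequence. The 3 at a distance of 1 or 2 bases were all called higher, with a median difference of 2.86 log2. Of the 4 at 3 to 5 bases 2 were called higher, and of the 7 at 6 to 8 bases none was, with differences of -0.50 to 0.28. Among 107 at 9 or 10 bases limma called 1 higher and 1 lower (median -0.04), and among 267 at 11 or more it called 3 higher and 4 lower (median -0.05). Counts in these bins are small and rest on the same 6 arrays. How far a probe for a relative binds the transgene's miRNA was not tested, and probe sequences were not used here.

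**Figure D3:**
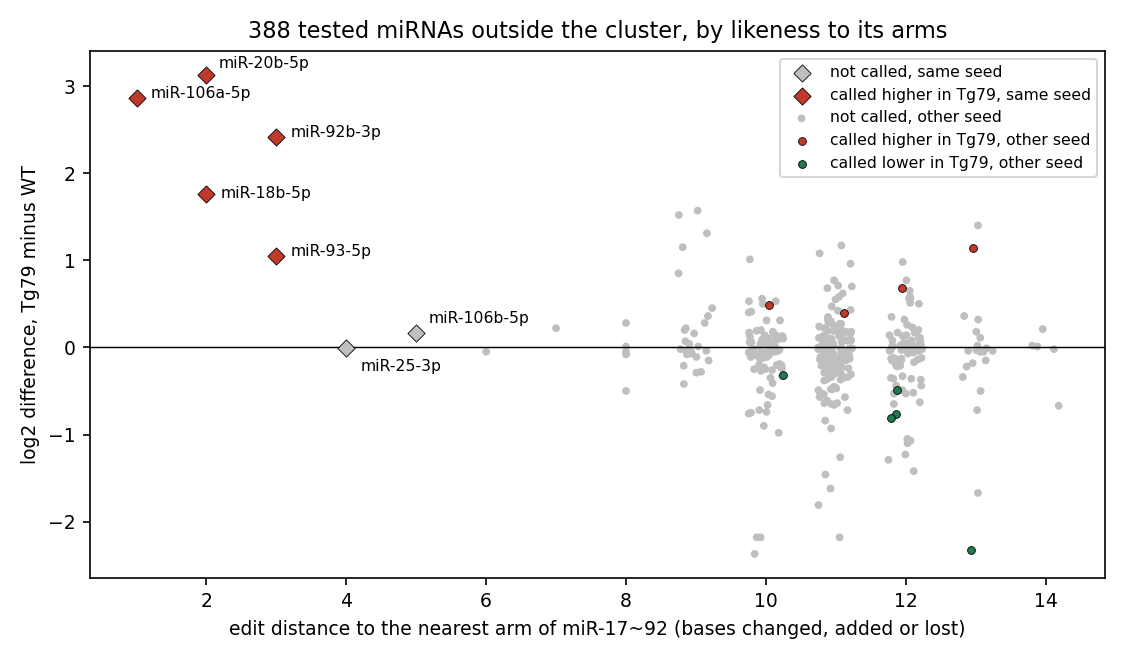
Log2 difference between Tg79 and WT (vertical axis) against the edit distance to the nearest arm of miR-17~92 (horizontal axis) for 388 tested miRNAs outside the cluster; diamonds share the seed of that arm, and points beyond 8 bases are spread sideways to be seen. MiR-106a-5p, miR-20b-5p, miR-18b-5p and miR-92b-3p, at 1 to 3 bases, lie at 1.76 to 3.13, and miR-25-3p and miR-106b-5p, at 4 and 5 bases, lie at -0.01 and 0.16.

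The 4 relatives of miR-17-5p and miR-20a-5p that share their seed differed among themselves. MiR-106a-5p, 1 base from miR-17-5p, read 12.27, 12.61 and 12.61 in Tg79 and 9.57, 9.91 and 9.43 in WT (difference 2.86 ± 0.42, limma adjusted p = 0.0387). MiR-20b-5p, 2 bases from miR-17-5p, read 12.13, 12.91 and 12.69 in Tg79 and 9.34, 9.79 and 9.20 in WT (3.13 ± 0.48), the largest rise among the 501. Both were called, and on both the lowest Tg79 array stood over 2 log2 units above the highest WT array. MiR-93-5p, 3 bases away, read 10.60, 11 and 10.08 in Tg79 and 9.48, 9.67 and 9.40 in WT, a rise of 1.05 ± 0.21 (limma adjusted p = 0.0449). Its raw spots lay closer, at 1161, 1379 and 966 in Tg79 and 908, 999 and 929 in WT. The ranks were 41, 32 and 53 in Tg79 and 69, 64 and 71 in WT. In the fit of Tg79 and WT alone miR-93-5p was not called. MiR-106b-5p, 5 bases away, read 9.60, 9.82 and 9.34 in Tg79 and 9.17, 9.82 and 9.29 in WT, with overlap. Its difference was 0.16 ± 0.19 and was not called.

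The relatives of miR-92a-3p differed among themselves as well. MiR-92b-3p, 3 bases from miR-92a-3p, read 8.82, 9.96 and 9.67 in Tg79 and 6.93, 7.20 and 7.09 in WT, and was called at 2.41 ± 0.39. MiR-25-3p, 4 bases away, read 9.07, 8.89 and 8.79 in Tg79 and 8.82, 9.10 and 8.85 in WT, with a difference of -0.01 ± 0.13. MiR-363-3p and miR-32-5p, each 10 bases from miR-92a-3p, differed by 0.06 and 0.04 and were each above the limit on 2 Tg79 and 3 WT arrays. These 3 miRNAs overlapped between groups and were not called. MiR-18b-5p, 2 bases from miR-18a-5p, read 8.51, 9.02 and 8.03 in Tg79 and 6.53, 7.03 and 6.71 in WT, and was called at 1.76 ± 0.34.

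Other arms of the paralogous clusters were not called. The counts called higher below stand against 3.59% of all tested miRNAs. In miR-106a-363, where 3 of 6 tested arms were called higher, miR-363-5p read 6.36, 6.46 and 6.24 in Tg79 and 6.48, 6.30 and 6.45 in WT, and miR-92a-2-5p read 7.40, 7.22 and 7.07 in Tg79 and 7.36, 7.09 and 7.38 in WT. Both overlapped between groups. In miR-106b~25, where 1 of 5 was called, miR-106b-3p differed by 0.28 ± 0.08 with no overlap and was not called (limma adjusted p = 0.0911), and miR-25-5p, above the limit on no Tg79 array, has only a bound there. Arms from the other side of hairpins whose main arm was called higher, miR-106a-3p, miR-18b-3p, miR-20b-3p and miR-93-3p, were below the limit on all 3 Tg79 arrays and were not tested.

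The miR-181 family was the other family with more than 1 call, at 2 of 5 tested members against 3.59% called higher over all tested. Its members lower the signalling threshold of lymphocytes and are abundant in early lymphocyte stages. MiR-181b-5p and miR-181d-5p were called, and they are 2 bases apart:
miR-181b-5p: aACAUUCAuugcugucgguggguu
miR-181d-5p: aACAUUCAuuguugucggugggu
miR-181a-5p: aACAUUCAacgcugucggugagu
miR-181c-5p: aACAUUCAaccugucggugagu
MiR-181b-5p read 7.84, 7.39 and 7.64 in Tg79 and 6.37, 6.64 and 6.42 in WT, a rise of 1.14 ± 0.22 (limma adjusted p = 0.0387). MiR-181d-5p read 6.87, 6.79 and 6.65 in Tg79 and 5.98, 6.23 and 6.06 in WT, where it was above the limit on 1 array, a rise of 0.68 ± 0.13. On both every Tg79 array stood above every WT array. MiR-181a-5p, the brightest member, read 9.28, 8.74 and 9.79 in Tg79 and 7.95, 8.57 and 8.36 in WT, a difference of 0.98 ± 0.37 that was not called (limma adjusted p = 0.163). MiR-181a-1-3p differed by 0.77 and miR-181c-5p by 0.17, neither called. All 5 tested members had a positive difference, as did 212 of all 501 tested, and on 4 of the 5 every Tg79 array stood above every WT array, as on 13% of all tested. MiR-181d-5p and miR-181a-1-3p, each above the limit on 1 WT array, passed the filter only with transgenic arrays, where they are high. Of the 19 miRNAs above the limit on more Tg79 than WT arrays, 16 stood apart with Tg79 higher. For such members 13% is therefore too low a background. The family's median was 0.77 against -0.04 over all tested miRNAs, and 0.68 against WT2 alone. With the all-miRNA median subtracted, the family stood at 0.73 with 75th percentile scaling and at 2.13 with the authors' values, and at -0.02 with the background column.

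MiR-21a-3p passed the limit on all 3 Tg79 arrays, on 2 Tg9 arrays and on no WT array, so it was tested only because of the transgenic arrays, where it is high. It was at least 1.29-fold higher in Tg79, with measured means of 6.41 in Tg79 and 5.91 in WT (limma adjusted p = 0.0477). Its partner arm miR-21a-5p, a miRNA of activated and proliferating cells, read 11.16, 12.13 and 11.74 in Tg79 and 10.39, 10.86 and 10.26 in WT. The difference of 1.17 ± 0.34 was not called, though the groups did not overlap. MiR-1943-3p, called at 0.39 ± 0.08, read 6.60 to 6.75 in Tg79 and 6.15 to 6.36 in WT. MiR-155-5p, which B cells induce on activation, spread widely over the Tg79 arrays, at 11, 9.74 and 8.20, against 8.13, 8.32 and 7.93 in WT. Tg79-3 lay within the WT range and the others well above it, and the miRNA was not called (limma adjusted p = 0.179).

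Of the 5 miRNAs called lower, miR-6240 was the brightest. Its raw spot read 1471, 1130 and 659 on Tg79-1 to Tg79-3 against 8350, 5888 and 14745 on WT1 to WT3, and its rank was 30, 40 and 67 in Tg79 against 8, 11 and 8 in WT. Normalized values were 11.10, 10.64 and 9.57 in Tg79 and 12.91, 12.48 and 12.91 in WT, a difference of -2.33 ± 0.40 (limma adjusted p = 0.0387), and of -2.05 against WT2 alone. MiR-3102-5p fell by 0.81 ± 0.18 (9.82, 9.28 and 9.48 in Tg79, 10.48, 10.00 and 10.52 in WT), and miR-6244 by 0.49 ± 0.10 (8.40, 8.52 and 8.66 in Tg79, 9.02, 8.98 and 9.07 in WT). MiR-3105-5p and miR-135a-2-3p were above the limit on no Tg79 array and on all 3 WT and 3 Tg9 arrays, so they were tested only because of the groups in which they are higher. They were at least 1.48-fold and at least 1.05-fold lower in Tg79, with measured means of 6 and 5.97 in Tg79 and 6.77 and 6.29 in WT. On all 5 the groups did not overlap. Little is known of these miRNAs, and no role is given here.

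A set of 4 further bright miRNAs was lower in the mean by 2.18 to 2.37 log2 without being called. They share a stretch of 9 bases, shown in capitals, and no other tested miRNA with a RefSeq sequence holds it:
miR-3473a: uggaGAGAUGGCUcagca
miR-3473b: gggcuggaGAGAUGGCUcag
miR-3473e: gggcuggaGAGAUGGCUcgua
miR-5128: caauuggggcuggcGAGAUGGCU
MiR-3473b read 10.91, 10.30 and 8.71 in Tg79 and 11.83, 11.94 and 12.69 in WT (-2.18 ± 0.53, limma adjusted p = 0.0624), and miR-5128 read 10.08, 9.51 and 7.95 in Tg79 and 11, 11.24 and 12.41 in WT (-2.37 ± 0.58, 0.0624). On both Tg79-3 was the lowest and WT3 the highest of the 6 arrays. MiR-3473a (0.0905) and miR-3473e (0.0911) showed the same order at Tg79-3 and WT3. In the raw spots miR-3473e read 1485, 821 and 337 on the Tg79 arrays and 4761, 3849 and 14938 on the WT arrays. The 4 miRNAs share sequence and are not taken as independent, though probe sequences were not used here. MiR-3473c and miR-3473d, which lack the stretch, differed by 0.20 and -0.04 and were not called.

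The miR-29, miR-26, miR-30 and let-7 families, which are broadly expressed in differentiated cells, had negative median differences in Tg79, and none of their members was called. Of the miR-29 family, which is known to restrain proliferation and matrix genes, 4 members were tested with a median difference of -1.27. MiR-29a-3p read 9.77, 11.16 and 11.38 in Tg79 and 12.41, 12.90 and 11.88 in WT (limma adjusted p = 0.127), and ranked 61, 28 and 25 in Tg79 against 12, 8 and 18 in WT. The groups did not overlap. MiR-29b-3p read 9.10, 10.48 and 10.57 in Tg79 and 11.10, 11.83 and 11.10 in WT (0.133). MiR-29c-3p read 7.20, 7.69 and 9.60 in Tg79 and 9.51, 9.72 and 9.04 in WT, with Tg79-3 inside the WT range.

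The miR-26 pair had a median of -1.34. MiR-26b-5p read 8.79, 8.62 and 9.74 in Tg79 and 10.57, 10.76 and 10.20 in WT (limma adjusted p = 0.079), and miR-26a-5p read 10.00, 10.04 and 10.78 in Tg79 and 11.52, 11.74 and 11.24 in WT (0.121). All Tg79 arrays stood below all WT arrays on both. The 5 members of the miR-30 family had a median of -0.84, with miR-30d-5p at 7.49, 7.18 and 9.23 in Tg79 and 9.36, 9.77 and 9.57 in WT (-1.60 ± 0.56). The 9 let-7 members lay between -0.64 and -0.01, with a median of -0.44. Tg79-3 was the highest Tg79 array on 4 of 4 miR-29, 5 of 5 miR-30, 2 of 2 miR-26 and 7 of 9 let-7 members. Below the all-miRNA median these families lay with quantile normalization, 75th percentile scaling, cyclic loess and the authors' values, but not with the background column, where the medians were 0.26 (miR-29), 0.94 (miR-30), 1.17 (miR-26) and 0.02 (let-7). With the authors' values all 3 tested miR-29, all 5 miR-30 and both miR-26 members were called lower, as were 85 of all 402 miRNAs tested there; the median over all tested miRNAs was -0.88, so that medians relative to it were -1.46, -0.81 and -1.24.

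**Figure D4:**
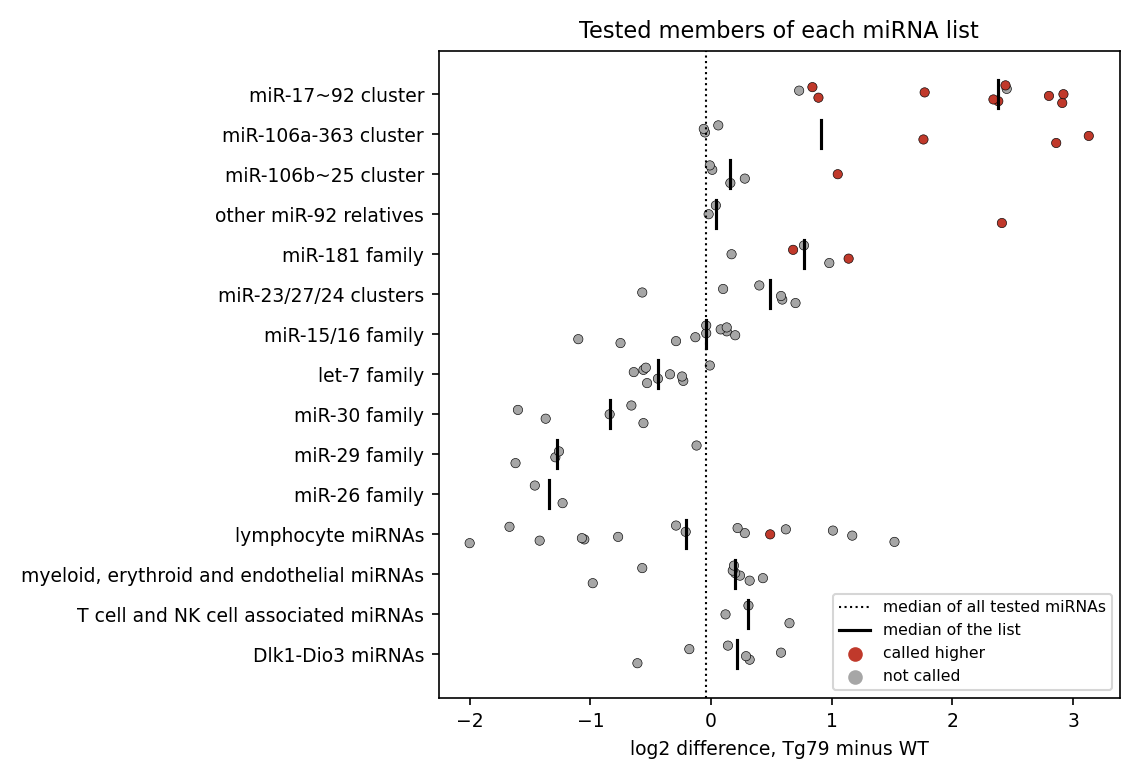
Log2 difference between Tg79 and WT (horizontal axis) for the tested members of each miRNA list (vertical axis), with red points called higher, grey points not called, black bars at list medians and a dotted line at the median of all tested miRNAs (-0.04). The list medians are 2.38 for miR-17~92, 0.77 for miR-181, -0.44 for let-7, -0.84 for miR-30, -1.27 for miR-29 and -1.34 for miR-26.

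The list of lymphocyte miRNAs held 15 tested members. Limma called 1 of them, miR-21a-3p, higher (3.59% of all tested) and none lower (0.998% of all tested). Of the differences 7 were positive and 8 negative, and the median was -0.21. The differences ran from -2 to 1.52. An unadjusted limma p under 0.05 was found for 10 of the 15, against 24.6% of all tested. On 3 of them every Tg79 array stood above every WT array and on 6 below, against 13% and 16.4% of all tested. MiR-150-5p, which accumulates as lymphocytes mature and which spread most over the Tg79 arrays among the 501, read 10.26, 9.20 and 12.41 in Tg79 and 12.48, 13.11 and 12.27 in WT. Tg79-3 lay inside the WT range, and the miRNA was not called (limma adjusted p = 0.175). MiR-342-3p, also abundant in B cells, read 7.61, 6.67 and 8.40 in Tg79 and 8.98, 9.56 and 9.15 in WT, with no overlap (-1.67 ± 0.48, not called, 0.0911). MiR-146a-5p, a feedback regulator of NF-κB signalling, was tight in Tg79 at 9.40, 9.29 and 9.20 against 10.69, 11.06 and 10.39 in WT. It was not called in the model of all arrays (limma adjusted p = 0.177), where the Tg9 arrays ran from 8.92 to 11.48, and was called lower in the fit of Tg79 and WT alone (-1.42 ± 0.18, 0.0167). MiR-146b-5p, miR-223-3p and miR-680 were called lower, and miR-677-3p and miR-712-5p higher, in that fit and not in the model of all arrays. Of these, miR-223-3p is named by the rule, and the others were picked on their values.

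Of the 12 miRNAs listed for myeloid, erythroid and endothelial cells 8 were tested and none was called, with a median of 0.19. Of these 8 differences 6 were positive and 2 negative, from -0.98 to 0.43. MiR-223-3p of myeloid cells read 6.69, 6.35 and 6.21 in Tg79 and 7.39, 7.64 and 7.16 in WT, lower on every Tg79 array. MiR-451a of red cells read 8.03, 7.84 and 6.75 in Tg79 and 7.65, 6.97 and 7.02 in WT, while miR-144-3p of red cells was below the limit on all 9 arrays. The probe shared by miR-486-5p of red cells and miR-3107-5p read 6.34, 6.20 and 6.53 in Tg79 and 6.20, 6.17 and 6.13 in WT, with overlap. The mean level over the 8 was 6.91, 6.71 and 6.21 in Tg79 and 6.70, 6.62 and 6.50 in WT. MiR-142-3p of leukocytes read 9.36, 10.26 and 10.34 in Tg79 and 10.64, 11.52 and 11 in WT and was not called. The part of cell mix in the results was not tested. The 10 tested members of the miR-15/16 family had a median of -0.04 and the 6 of the miR-23/27/24 clusters one of 0.49, with none called. Of the 10, 4 differences were positive and 6 negative. The 4 members above the limit on all 9 arrays were all negative, with a median of -0.52, and miR-16-5p differed by -1.10. Of 7 T and NK cell associated miRNAs 3 were tested, with a median of 0.31 and none called, and on all 3 every Tg79 array stood above every WT array, as on 13% of all tested. MiR-182-5p read 7.14, 6.24 and 6.67 in Tg79 and 5.99, 6.13 and 5.98 in WT (limma adjusted p = 0.117), and it was above the limit on 1 WT array. Both miR-182-5p and miR-212-3p passed the filter only with transgenic arrays. MiR-212-3p differed by 0.12 and miR-214-3p by 0.31. Of the Dlk1-Dio3 miRNAs 6 were tested (median 0.21), with none called.

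The share of calls grew with brightness. With the tested miRNAs split by mean level into 3 sets of 167, limma called 1.8% of the dimmest, 3.59% of the middle and 8.38% of the brightest set. Differences of 2-fold or more were found for 25 miRNAs higher and 23 lower in the mean, all of them above the limit on all 6 arrays, and of these 13 higher and 1 lower were called. At 65 miRNAs (13%) every Tg79 array stood above every WT array, and at 82 (16.4%) below, together 147 (29.3%). At an unadjusted p under 0.05 there were 63 higher (12.6%) and 60 lower (12%), together 123 (24.6%). How many miRNAs count as higher or lower depends on the scaling. With 75th percentile scaling over the probes detected on all arrays 166 were called higher and 19 lower, with the median of all tested at 0.48, and with the authors' values 15 higher and 85 lower, with the median at -0.88. With that percentile taken over all probes, a setting chosen after the data were seen, 19 were called higher and 20 lower.

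On the mRNA arrays 18524 of 23473 probes were tested by the same rules, and few were called although many had separate groups. Limma called 157 (0.848%), 48 higher (0.259%) and 109 lower (0.588%) in Tg79. The smallest limma adjusted p among those higher was 0.0425. The probes with the largest rises and falls named below had 0.0497, M400010804 apart, so these calls stand near the cut. Probes carry identifiers without gene names in the files, so no gene or pathway is named. The called probes that were lower differed more, with a median of -1.21 log2 against 0.80 for those higher. Fold changes of 4 or more were called for 3 probes higher and 25 lower. Over all tested probes 548 were at least 2-fold higher and 597 at least 2-fold lower in the mean (6.18%), of which 18 and 63 were called. At 3234 probes (17.5%) every Tg79 array stood above every WT array, and at 3428 (18.5%) below, together 6662 (36%). At an unadjusted p under 0.05 there were 2279 higher (12.3%) and 2674 lower (14.4%), together 4953 (26.7%).

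Among called probes above the limit on all 6 arrays, the largest falls were at probes bright in WT and dim in Tg79. Probe M200001716 read 6.44, 6.68 and 6.34 in Tg79 and 10.36, 10.28 and 10.86 in WT (-4.02 ± 0.45, limma adjusted p = 0.0497), and M300018035 read 6.03, 6.16 and 6.11 in Tg79 and 9.72, 9.84 and 10.04 in WT (-3.77 ± 0.58). M200006241 read 6.83, 6.12 and 7.29 in Tg79 and 10.41, 10.85 and 11.20 in WT (-4.07 ± 0.64). On these probes every Tg79 array was more than 3 log2 units below every WT array. M400000946 fell by 3.89, M200015923 fell by 3.42 and M300004435 fell by 2.89. On the first 5 of these 6 the array labelled Tg9-2 lay near WT (9.98 to 10.75) while Tg9-1 and Tg9-3 lay between Tg79 and WT (7.62 to 9.56).

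Of the 6 largest rises chosen in the same way, M200005118 read 8.43, 7.22 and 7.76 in Tg79 and 6.01, 5.97 and 6.01 in WT, with Tg9 arrays at 6.07, 5.96 and 6.10. M400010804 read 9.06, 8.75 and 8.61 in Tg79 and 6.86, 6.42 and 6.52 in WT (2.20 ± 0.21, limma adjusted p = 0.0425). M200002097 read 9.62, 8.78 and 8.20 in Tg79 and 6.07, 6.08 and 6.15 in WT (2.77 ± 0.45). On all 3 the groups lay over 1 log2 unit apart. M200002252 rose by 2.14, M200003589 by 1.62 and M200000158, the brightest of the 6 at 12.44, 12 and 12.37 in Tg79 and 11.04, 11.02 and 10.65 in WT, by 1.37.

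**Figure D5:**
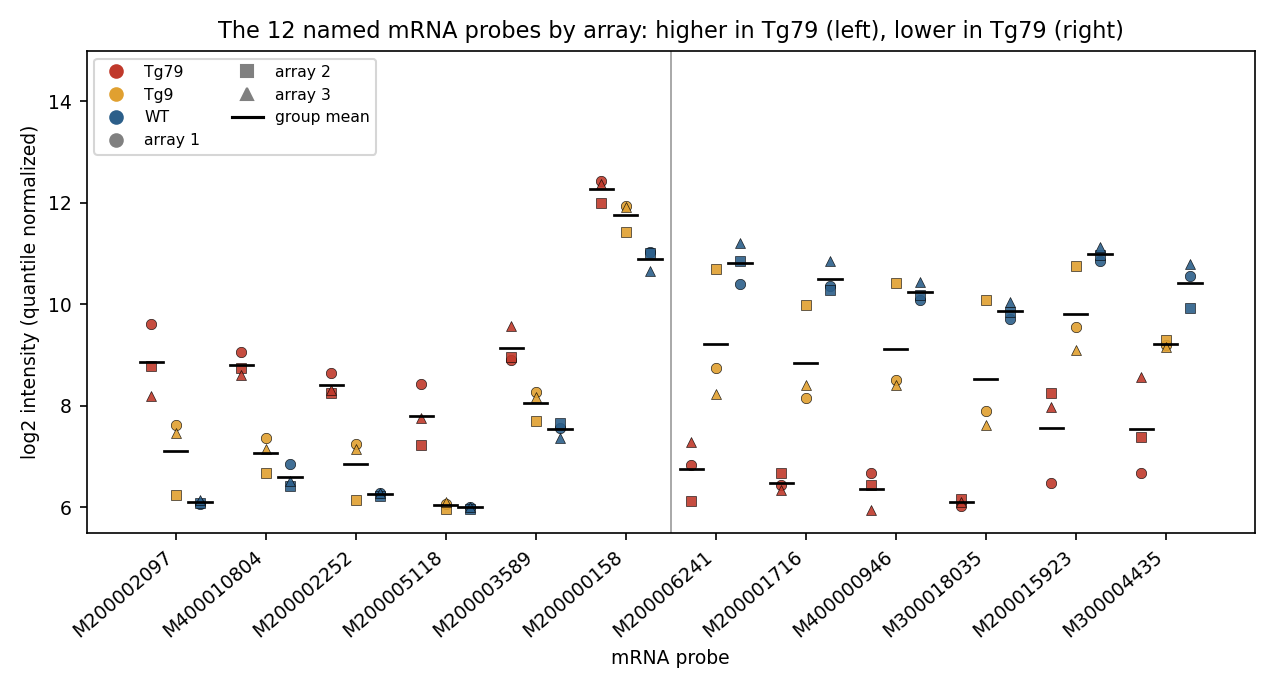
Normalized log2 intensity (vertical axis) of the 6 called mRNA probes with the largest rises (left of the grey line) and the 6 with the largest falls (right) among those above the limit on all 6 arrays, on the Tg79 (red), Tg9 (orange) and WT arrays (blue), with black bars at group means. Tg79 and WT do not overlap on any of the 12 probes, and among the Tg9 arrays Tg9-2 lies nearest to the WT mean on all 12.

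The probe with the lowest adjusted p, M300012030, falls outside the naming rule and was picked on its values. It read 6.92, 7.10 and 6.89 in Tg79 and 9.17, 9.26 and 9.41 in WT, a difference of -2.31 ± 0.13 (limma adjusted p = 0.00463). It was the single probe called with cyclic loess, with no filter, with replicate number as a block, and without Tg79-2, WT1 or the array labelled Tg9-1. The count of mRNA calls by limma was 0 without WT2 or WT3 (3804 and 3629 at an unadjusted p under 0.05), where this probe had an adjusted p of 0.0723 and 0.0517, and it was 6 without Tg79-1. It was larger without Tg79-3 (1622), without the array labelled Tg9-2 (1313) or Tg9-3 (605), and in the fit of Tg79 and WT alone (927, with 407 higher and 520 lower), which held 156 of the 157. Tg79-3 was the Tg79 array nearest to WT, at a root mean square difference of 0.48 to 0.57 log2 from the WT arrays, against 0.60 to 0.70 for Tg79-1 and Tg79-2. With 75th percentile scaling 268 probes were called higher and 253 lower.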

How the data were processed

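Spotted oligonucleotide arrays of 1 colour were deposited as scanner tables with a spot intensity and a background intensity per spot, per the file headers. The authors also deposited a series table of log2 values, used in an alternative; its miRNA identifiers sit 5 lines off the scanner rows (lowest Spearman correlation 0.142 as given, 1 once moved). Spot intensities were corrected by normexp (offset 50), quantile normalized within an array kind, put on the log2 scale and fitted with limma 3.58.1 in R 4.3.3 over all 9 arrays of a kind, 2-sided, with Benjamini-Hochberg adjustment. The background column follows the spot (r 0.982 to 0.995 on miRNA and 0.892 to 0.964 on mRNA arrays, across spots) and was not subtracted. Probes above the 95th percentile of negative controls on 3 or more arrays were tested, 501 of 1265 miRNA and 18524 of 23473 mRNA probes. The number of arrays limits the precision: an exact permutation test of 3 against 3 cannot go below p = 0.1. The rule names every tested arm of the 3 clusters, every called miRNA, up to 4 tested members of each other list by smallest p, the 5 miRNAs per direction with the largest difference among those above the limit on all 6 Tg79 and WT arrays, and the 6 called mRNA probes per direction chosen the same way. MiR-150-5p, miR-155-5p, miR-146a-5p, miR-146b-5p, miR-181c-5p, miR-451a, miR-677-3p, miR-680, miR-712-5p, miR-3473c, miR-3473d and the untested miRNAs named are outside it and were chosen after their values were seen. Members and lists were chosen with earlier results of these data known. Alternatives changed the background, scaling, filter, values, arrays and blocks. The fits were tested on simulated data. The labels do not say that arrays with the same number are paired between kinds or groups, and none were paired here. List names were matched to the array's older names, and a probe named for miR-486-5p and miR-3107-5p together was counted in its list. mRNA gene lists were not analysed here.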

Additional observations from a re-analysis of the deposited data

Results flagged for a closer look

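The mRNA probe M300012030, picked on its values, differed between the transgenic lines by limma's test of Tg79 against Tg9 in the main fit, but not in many other settings. It read 6.92, 7.10 and 6.89 in Tg79, 8.54, 8.97 and 8.91 in Tg9 and 9.17, 9.26 and 9.41 in WT. The log2 difference of Tg79 against Tg9 was -1.84 (limma adjusted p = 0.0231, over all tested probes). Every Tg79 array lay below every Tg9 array. In settings added after the data were seen the limma adjusted p was lowest without the array labelled Tg9-1 (0.00979). It was highest (0.562) in the fit of the Tg79 and Tg9 arrays alone, without WT. It was also over 0.05 with the background column (0.32), the authors' values (0.0579) and replicate number as a block (0.122). The same held without Tg79-1, Tg79-2, WT1, WT2, WT3 or the array labelled Tg9-2 (0.0537 to 0.15). It stayed under 0.05 with the other scalings and filters, with no background correction, and without Tg79-3 or the array labelled Tg9-3.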

How the results depend on the processing

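The 23 called miRNAs kept their sign in every setting that tested them except with the deposited background column (9 of 23 kept it) and 75th percentile scaling (22 of 23). Tg79 and WT do not overlap on any of the 23, so fits that drop an array or add a block could hardly turn a sign. Subtracting the background column, which follows the spot, gave 0 calls (14 at an unadjusted p under 0.05) and a median over the arms of -0.01. It turned miR-93-5p to -0.41, miR-92a-3p to -2.36, miR-92a-1-5p to -0.01, miR-18a-5p to -1.02, miR-17-3p to -0.06, miR-17-5p to -0.18, miR-106a-5p to -1.51, miR-1943-3p to -0.01, miR-181d-5p to 0, miR-6240 to 0.70, miR-181b-5p to -0.02, miR-21a-3p to -0.01, miR-3102-5p to 0.75 and miR-3105-5p to 0. Calls of miRNAs numbered 185 with 75th percentile scaling, which turned miR-135a-2-3p to 0.28, 39 with that percentile over all probes (chosen after the data were seen), 100 with the authors' values, 0 with no filter (191 at an unadjusted p under 0.05), 0 with slide as a factor (46) and 39 with slide as a random block (correlation -0.14). Leaving out single arrays gave 0 to 29 miRNAs and 0 to 1622 mRNA probes. Calls of mRNA probes numbered 401 with no background correction, 26 with the background column, 521 with 75th percentile scaling, 1 with cyclic loess, 1 with no filter and 927 with the 6 Tg79 and WT arrays. The causes were not tested.

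With the replicate number as a block, limma called 0 miRNAs (110 at an unadjusted p under 0.05) and 1 mRNA probe. The labels do not say that numbers pair arrays. The deviations from the group means of Tg79 and WT arrays with the same number correlated at 0.12, -0.21 and -0.35 on miRNA arrays and at -0.22, 0.12 and -0.16 on mRNA arrays. Dim probes limit what can be measured, since 696 of 1265 miRNA probes passed the limit on none of the 6 arrays.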
